A study of Mus musculus with 15 samples.

Results

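Cell cycle genes were followed here as a set of 37 genes of S phase and mitosis, taken by symbol from a list. The list was chosen with earlier results of these data known, and its genes were looked up among the 37620 gene identifiers of the count tables. All 37 were found, and all 37 passed the filter on low counts at both time points. The members were 20 genes of mitosis, 15 genes of DNA replication and its start, and the transcription factors E2f1 and Foxm1. The study sequenced RNA from the ileum of 15 adult mice, to compare animals carrying a floxed Rfx6 gene with and without an inducible Cre recombinase. The labelled mutants were Rfx6f/f; Vilin-CreERT2, in which the Villin promoter drives a tamoxifen-dependent Cre in the intestinal epithelium and not in the other cells of the ileum. The controls lacked the Cre and were Rfx6f/f or Rfx6f/+. Controls as well as labelled mutants received tamoxifen by gavage. Tissue was taken 8 days later from 3 controls, all Rfx6f/f, and 4 labelled mutants, or 3 months later from 4 controls and 4 labelled mutants. Of the 3-month controls, replicates 1 and 4 were Rfx6f/f and replicates 2 and 3 were Rfx6f/+.

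Cells that divide switch on these genes in waves. E2F factors and cyclin E with its kinase start S phase, the MCM helicase is loaded at origins and unwinds DNA, and cyclins A and B with Cdk1 drive mitosis, which Aurora and Polo kinases and the spindle checkpoint organise. In the ileum the dividing cells are mainly the stem and transit cells of the crypts, with dividing lymphocytes of the germinal centres as a further source. In a bulk tissue sample, fewer dividing cells and less RNA of these genes per cell cannot be told apart.

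The libraries held between 30452485 and 54468586 counts at 8 days and between 26078462 and 36270306 at 3 months. A member had between 103 counts (E2f1) and 15299 counts (Mki67) in a library. Levels are given as counts per 1000000 of the TMM-scaled library size (CPM), scaled within each time point. Rfx6, the targeted gene, was not lower in the labelled mutants. The 8-day controls had 50, 50 and 84 Rfx6 counts against 80, 105, 63 and 44 for the labelled mutants, and at 3 months the values were 51, 52, 38 and 43 against 106, 72, 89 and 65. Its log2 fold change was 0.19 (SE 0.18, adjusted p 0.867, edgeR quasi-likelihood test) at 8 days and 0.72 (SE 0.17, adjusted p 0.0347) at 3 months. Counts over the whole gene do not show whether the floxed part was lost, so the groups are named by their labels here. The ileal genes Fabp6 and Slc10a2, which carry bile acids inside and into ileal enterocytes, were present in all 15 libraries, at 572 to 2708 CPM and 200 to 604 CPM. The labels name no litter or batch, and p-values measure the spread between these samples.

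At 3 months nearly all of the genes lay lower in the labelled mutants, each by a modest amount. The log2 fold change was below 0 for 36 of 37 members, with a median of -0.28, while over the 17085 genes tested 48.8% lay below 0 and the median was 0.01. Of the members, 24 had a log2 fold change between -0.20 and -0.40. Past an adjusted p of 0.05, Top2a, Mad2l1 and Mcm6 fell and Ccne2 rose, which is 4 of 37 members or 10.8%, beside 9.28% of all genes tested. That share is near the background, of which 4.32% were lower and 4.96% higher. At an unadjusted p under 0.05 there were 24 members (64.9%), 23 lower and 1 higher, beside 29.4% of all genes, with 14.8% lower and 14.5% higher. A further 16 members had an adjusted p between 0.05 and 0.1, the lowest being 0.0510 for Aurka. In 11 members (29.7%) every labelled mutant lay below every control, which held for 9.53% of all genes. The opposite held for Ccne2 alone (2.7%), beside 9.7% of all genes.

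**Figure D1:**
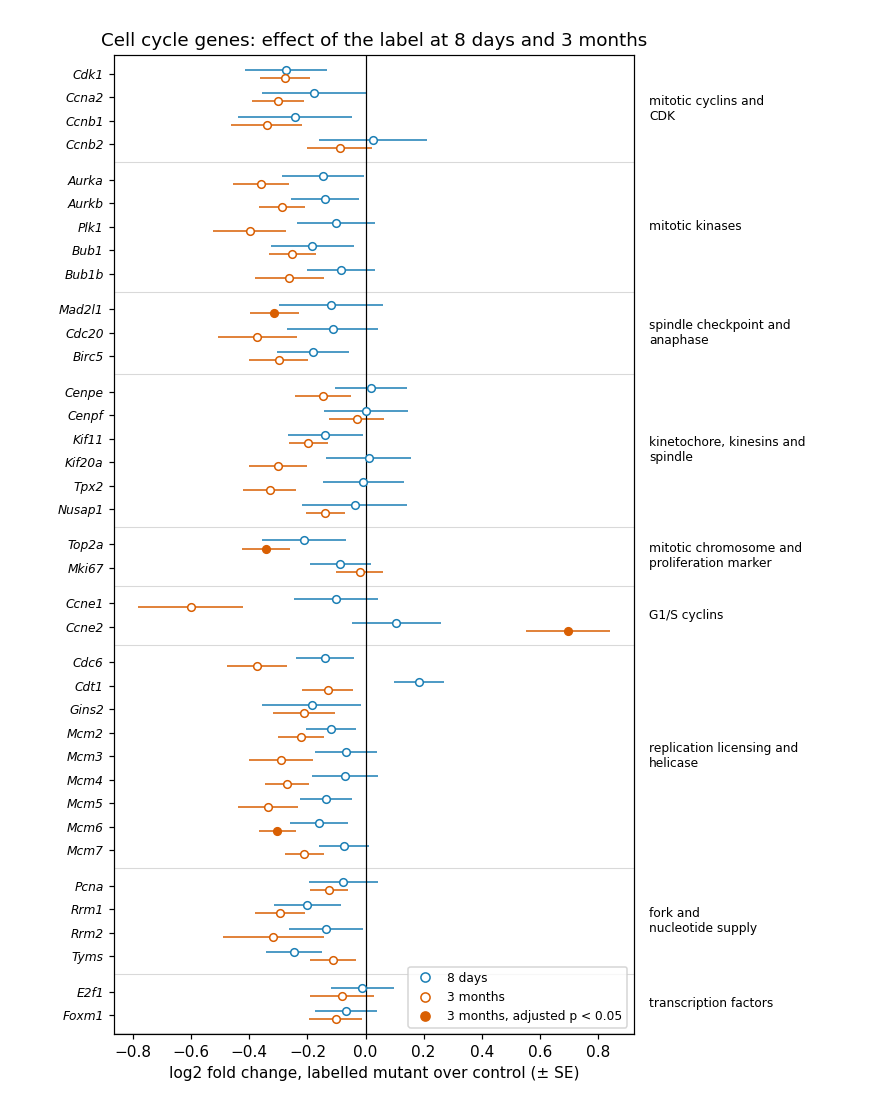
Log2 fold change (x axis, ± SE) of each of the 37 cell cycle genes (y axis, by role) between labelled mutants and controls at 8 days (blue) and 3 months (orange), with filled points for an adjusted p under 0.05. At 3 months 36 of 37 points lie left of 0 and Ccne2 alone lies right, while at 8 days no point is filled.

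The count of 4 depended on the libraries and on the test. Leaving out control replicate 1, 2 or 3 gave 0 members past the threshold, beside 2.31%, 2.39% and 2.25% of all genes. Leaving out labelled mutant replicate 1 gave 0 of 37, beside 4.95%, and leaving out its replicate 3 gave 1 of 37, beside 4.45%. Leaving out labelled mutant replicate 2 gave 3 of 37, beside 8.33%. All genes together also had lower shares of calls in these fits than the 9.28% of all libraries. Without control replicate 4 there were 10 of 37, beside 8.77% of all genes. Without labelled mutant replicate 4 there were 9 of 37, beside 7.59%. With the 2 Rfx6f/f controls only there were 0, beside 0.205% of all genes, and 34 of 37 members lay below 0 with a median of -0.22. The DESeq2 Wald test called 18 of 37 members, beside 17.5% of all genes. By direction, 17 of 37 were lower, beside 8.85%, and Ccne2 alone was higher, beside 8.65%. The limma-voom test called 7 of 37, beside 9.49%.

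Promoters of a few of these genes are shown because promoters of cell cycle genes are known for shared elements. These are the CHR and CCAAT elements of genes of mitosis and the E2F site of genes of S phase. Whether they had a part in the lower levels was not tested. The sequences are from RefSeq on GRCm38.p6, cover the 180 bases before the annotated start and read 5′ to 3′ on the strand of the gene. Capitals mark matches on either strand to the letters of 3 elements. For the CHR the letters were TTTGAA, with TTTAAA as the other accepted form. For the CCAAT element they were its own name. For the E2F site they were TTCCCGC, with TTGGCGC as the other accepted form. Top2a lies at chr11:99024190-99024369 (minus strand), Mad2l1 at chr6:66535041-66535220 (plus), Mki67 at chr7:135716380-135716559 (minus), Mcm6 at chr1:128359706-128359885 (minus) and Ccne1 at chr7:38107491-38107670 (minus).
Top2a: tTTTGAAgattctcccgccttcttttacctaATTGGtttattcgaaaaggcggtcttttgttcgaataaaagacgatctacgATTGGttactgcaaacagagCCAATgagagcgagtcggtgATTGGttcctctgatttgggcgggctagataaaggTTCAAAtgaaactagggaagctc
Mad2l1: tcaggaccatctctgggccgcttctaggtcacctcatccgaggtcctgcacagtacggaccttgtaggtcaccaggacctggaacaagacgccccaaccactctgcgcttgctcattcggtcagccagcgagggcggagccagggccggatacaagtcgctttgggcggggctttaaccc
Mki67: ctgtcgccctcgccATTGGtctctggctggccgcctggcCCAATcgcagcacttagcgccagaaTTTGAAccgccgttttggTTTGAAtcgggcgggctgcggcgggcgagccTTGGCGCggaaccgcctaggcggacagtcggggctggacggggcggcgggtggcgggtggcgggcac
Mcm6: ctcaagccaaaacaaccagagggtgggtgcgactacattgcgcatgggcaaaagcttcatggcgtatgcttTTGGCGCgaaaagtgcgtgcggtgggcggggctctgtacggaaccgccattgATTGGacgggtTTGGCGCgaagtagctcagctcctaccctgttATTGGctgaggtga
Ccne1: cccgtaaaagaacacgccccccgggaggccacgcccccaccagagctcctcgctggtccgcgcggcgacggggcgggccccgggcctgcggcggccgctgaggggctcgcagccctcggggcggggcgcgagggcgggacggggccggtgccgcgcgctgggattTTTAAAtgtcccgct
Top2a and Mki67, whose 3-month values are given further on, both hold CHR and CCAAT letters, and Mki67 also holds an E2F match. Mad2l1 holds none of the 3 motifs in this stretch. Mcm6 holds a pair of E2F and a pair of CCAAT matches, and Ccne1 a single CHR match. These are matches of letters and say nothing of binding.

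Over the full windows of 250 bases before to 50 after the start, the promoter table held 30 windows of 29 members, with 2 windows for Mcm7. CHR letters stood in 17 of 30 windows (56.67%), beside 27.59% of all 32851 windows. CCAAT stood in 22 (73.33%), beside 37.41%, and E2F letters in 11 (36.67%), beside 6.81%. By role, CHR letters stood in 13 of 16 windows of mitosis genes and 4 of 13 windows of replication genes, and E2F letters in 3 of 16 and 8 of 13. TTGGCGC after an A also holds the CCAAT letters on the other strand, so such a stretch counts for both motifs. Ccna2, Ccne2, Aurkb, Tpx2, Kif20a, Gins2, Mcm4 and Foxm1 had no entry in the table.

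Among the genes of mitosis, Top2a had the smallest p at 3 months. It encodes topoisomerase II alpha, which untangles sister chromatids, and is made mostly in dividing cells. Its level at 3 months was 421, 442, 414 and 376 CPM in the controls and 282, 343, 336 and 342 CPM in the labelled mutants. The groups did not overlap. It fell by 0.34 on the log2 scale (SE 0.08, adjusted p 0.0377, edgeR), from a mean of 413 ± 27.4 CPM (SD, n = 4) to 326 ± 29.1 CPM (SD, n = 4). The call was kept in 8 of 16 alternatives, and of the single libraries it held without control replicate 4 or labelled mutant replicate 2. The adjusted p lay between 0.00162 and 0.253.

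Mad2l1 encodes Mad2, the spindle checkpoint protein that holds back anaphase until every chromosome is attached. Its 3-month level was 28.3, 31.6, 31.2 and 26.8 CPM in the controls and 21.6, 22.5, 25.0 and 25.8 CPM in the labelled mutants. The groups did not overlap, though control replicate 4 and labelled mutant replicate 4 lay close together. It fell by 0.31 on the log2 scale (SE 0.08, adjusted p 0.0486, edgeR) and was past the threshold in 3 of 16 alternatives (DESeq2, limma-voom and without control replicate 4), with adjusted p between 0.0128 and 0.311.

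Mki67, which encodes the proliferation marker Ki-67, was singled out after its values were seen. Its 3-month level was 386, 396, 357 and 332 CPM in the controls and 342, 334, 383 and 390.2 CPM in the labelled mutants. The groups overlapped fully. Mki67 had -0.02 (SE 0.08, adjusted p 0.890, edgeR), and its sign turned in 5 of 16 alternatives, up to 0.02. Cenpf, a kinetochore protein, had -0.03 (SE 0.10, adjusted p 0.854), turning in 3 of 16, up to 0.09.

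**Figure D2:**
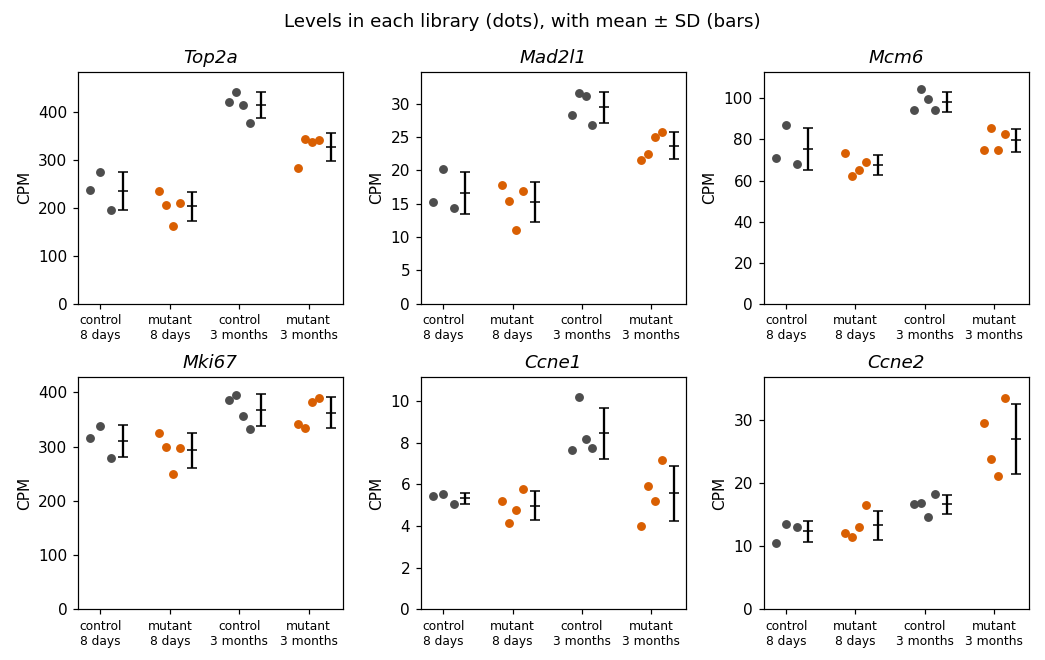
Level in CPM (y axis, from 0) of Top2a, Mad2l1, Mcm6, Mki67, Ccne1 and Ccne2 in each library (dots) of the 4 groups (x axis), with the mean ± SD beside the dots. At 3 months the groups are apart for all but Mki67, and Ccne2 is the one gene of the 6 whose labelled mutants lie above the controls.

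The mitotic cyclins and their kinase lay lower without passing the threshold. Cdk1, the kinase of mitotic entry, had -0.28 (SE 0.09, adjusted p 0.0740, edgeR) at 3 months on the log2 scale, Ccna2 (cyclin A2) -0.30 and Ccnb1 (cyclin B1) -0.34. Ccnb2 (cyclin B2) had -0.09. All 5 mitotic kinases lay between -0.25 and -0.40, with Plk1 (Polo-like kinase) at -0.40 (SE 0.13, adjusted p 0.0756), Aurka at -0.36 (SE 0.10, adjusted p 0.0510) and Aurkb at -0.29 (SE 0.08, adjusted p 0.0511). Aurka acts at spindle poles and Aurkb at centromeres. For both of them every labelled mutant lay below every control, Aurka at 22.6 to 29.0 CPM against 29.0 to 35.4 CPM, with the closest pair nearly equal. Bub1 and Bub1b, kinases of the spindle checkpoint, had -0.25 and -0.26.

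Cdc20, which activates the ligase that starts anaphase, had -0.37 (SE 0.14, edgeR, not past the threshold), and Birc5 (survivin), a partner of Aurkb, had -0.30 (SE 0.10, adjusted p 0.0909). Of the 6 genes of kinetochore, kinesins and spindle, Tpx2, an activator of Aurora A, had the lowest value at -0.33 (SE 0.09, adjusted p 0.0556). Kif20a, a kinesin of cytokinesis, had -0.30 and Kif11, the kinesin that pushes spindle poles apart, -0.20. Cenpe, Cenpf and Nusap1 lay between -0.15 and -0.03. The median of this role was -0.17, beside -0.29 for the mitotic kinases.

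Of the 9 genes of replication licensing and helicase, all lay below 0 at 3 months, with a median of -0.27, and Mcm6 passed the threshold. Mcm6 is a subunit of the MCM2-7 ring, the core of the replicative helicase. Its level was 94.3, 104.4, 99.9 and 94.1 CPM in the controls and 75.1, 85.7, 74.9 and 82.4 CPM in the labelled mutants. The groups did not overlap. It fell by 0.30 on the log2 scale (SE 0.06, adjusted p 0.0252, edgeR), and kept its call in 10 of 16 alternatives, of the single libraries without control replicate 4 or labelled mutant replicate 2 or 4. The adjusted p lay between 0.000664 and 0.223.

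The other 5 MCM subunits had log2 fold changes between -0.21 (Mcm7) and -0.33 (Mcm5) at 3 months, with adjusted p between 0.0534 and 0.121 (edgeR). Mcm4, Mcm5 and Mcm7 did not overlap between the groups and Mcm2 and Mcm3 did. Cdc6 and Cdt1, which load the ring at origins, differed in size. Cdc6 had -0.37 (SE 0.10, adjusted p 0.0546), with 12.4 to 14.8 CPM in the controls and 9.24 to 12.2 CPM in the labelled mutants, and Cdt1 had -0.13 (SE 0.09, adjusted p 0.354). Gins2, of the GINS complex that joins the helicase, had -0.21 (SE 0.11, adjusted p 0.215).

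At the fork, Rrm1, the large subunit of ribonucleotide reductase, had -0.30 (SE 0.09, adjusted p 0.0624, edgeR), with every labelled mutant below every control. Its partner Rrm2 had -0.32 but with an SE of 0.17 (adjusted p 0.254). Pcna, the sliding clamp, and Tyms, which makes thymidylate, had -0.13 and -0.11. The transcription factors E2f1 and Foxm1 had -0.08 (SE 0.11, adjusted p 0.656) and -0.10 (SE 0.09, adjusted p 0.478).

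The 2 cyclin E genes lay in opposite directions at 3 months. Cyclins E1 and E2 both activate Cdk2 at the start of S phase. Ccne2 stood at 16.7, 16.8, 14.7 and 18.3 CPM in the controls and at 29.5, 23.8, 21.1 and 33.6 CPM in the labelled mutants. It was higher in 4 of 4 labelled mutants than in any control. Ccne2 rose by 0.70 on the log2 scale (SE 0.14, adjusted p 0.0245, edgeR), or 1.62-fold, the only member above 0. The call held in 11 of 16 alternatives, and was lost without control replicate 1, 2 or 3 or labelled mutant replicate 1 and with the Rfx6f/f controls only, with log2 fold changes between 0.58 and 0.80 when single libraries were left out and adjusted p between 0.00024 and 0.206 over all alternatives.

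Ccne1 was singled out after its values were seen. It stood at 7.65, 10.2, 8.20 and 7.74 CPM in the controls and at 4.01, 5.94, 5.20 and 7.16 CPM in the labelled mutants. The groups did not overlap, but its log2 fold change of -0.60 (SE 0.18, adjusted p 0.0668, edgeR) did not pass the threshold. It was the lowest value of the 37. Of 16 alternatives it passed in 3, which were DESeq2 (adjusted p 0.0148), the joint fit (0.0253) and leaving out labelled mutant replicate 4 (0.0427). In the other 13 it did not pass, with an adjusted p up to 0.340 with the Rfx6f/f controls only.

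The ratio of Ccne2 to Ccne1 within a library, also chosen after the values were seen, was 1.64 to 2.36 in the 3-month controls and 4.01 to 7.34 in the labelled mutants. On the log2 scale the means were 0.98 ± 0.24 (SD, n = 4) and 2.28 ± 0.41 (SD, n = 4). No test is given for it, since the pair was picked as the highest and the lowest member. At 8 days the means were 1.20 ± 0.23 (SD, n = 3) and 1.41 ± 0.13 (SD, n = 4). Exons of Ccne2 share 17.42% of their bases with Ints8 on the other strand, and whether counting used strand is not given in the sources used here. Ints8 itself stood near 0 at 3 months (log2 fold change 0.02, adjusted p 0.883, edgeR).

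Other overlaps touch 8 further members. Gins2 shares 67.32% of its exon bases with Gse1 on the other strand, and Gse1 rose by 0.26 at 3 months (adjusted p 0.0324, edgeR). Ccna2 shares 12.49% with Exosc9, which fell by 0.22 (adjusted p 0.0379), and Kif20a shares 29.3% with Cdc23, which had -0.07 (adjusted p 0.460). Mcm7 shares 12.58% with Cops6, Ap4m1, Mir25 and Mir93. The values of Gins2, Ccna2, Kif20a and Mcm7 are uncertain to that extent, and Nusap1, Cdc20, Top2a and Foxm1 share smaller stretches. Ccnb1, Pcna, Tyms, Mcm7, Cdc6, Cdc20, Mad2l1, Rrm2 and Mki67 also have a near-identical copy elsewhere in the annotation, with at least 95% identity over at least 200 bases, and reads could have been split between the copies. Over the 15 libraries the pseudogene Pcna-ps2 held 2136 counts, beside 36650 for Pcna. The copies of Ccnb1 held 1 (Ccnb1-ps) and 13 (Gm12856) beside 14488, that of Cdc6 held 7 (Gm9430) beside 5466, and that of Cdc20 held 38 (Gm7856) beside 21640. Tyms, with 15378 counts, shares stretches of this kind with genes that hold many counts of their own, among them Map3k2 (70435), Reep3 (49786) and Wdr59 (8243).

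The same libraries were high or low for most members. At 3 months control replicate 2 was the highest library for 26 of 37 members and labelled mutant replicate 1 the lowest for 24. The median log2 difference from the control mean was 0.05, 0.11, -0.02 and -0.14 over control replicates 1 to 4 and -0.41, -0.31, -0.21 and -0.10 over the labelled mutants. Control replicate 4 thus lay lowest of the controls, and labelled mutant replicate 4 lay above it. Summed over the 37 genes, the levels were 2498, 2617, 2397 and 2192 CPM in the controls and 1909, 2013, 2174 and 2272 CPM in the labelled mutants, so the groups overlapped by that 1 library.

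**Figure D3:**
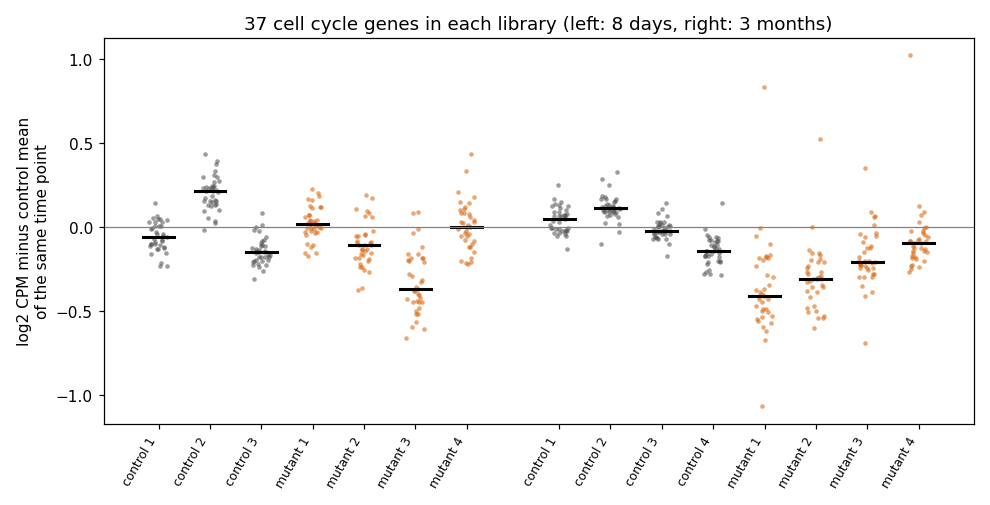
Log2 level of each of the 37 genes (dots) in each library (x axis) minus the mean of the controls of the same time point (y axis, log2 CPM), with the median as a bar. At 3 months the medians of the labelled mutants run from -0.41 to -0.10, and at 8 days labelled mutant replicate 3 (-0.37) and control replicate 2 (0.21) lie farthest from 0.

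At 8 days no member passed the threshold. The edgeR test called 0 of 37, beside 0.0915% of the 17493 genes tested. DESeq2 and limma-voom called 0 too, beside 1.02% and 0.0915%. There was 1 member, Tyms, with an unadjusted p under 0.05, beside 8.8% of all genes. The log2 fold change was below 0 for 31 members, beside 50.7% of all genes, and the median was -0.11. These 31 were below 0 at 3 months too. In 2 members, Tyms and Cdc6 (5.41%), every labelled mutant lay below every control, beside 3.8% of all genes, and the opposite held in 0, beside 3.84%.

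Tyms stood at 27.6, 28.5 and 23.99 CPM in the 8-day controls and at 23.6, 23.7, 19.5 and 23.1 CPM in the labelled mutants. The groups were apart by a small margin, and Tyms had -0.25 on the log2 scale (SE 0.10, adjusted p 0.499, edgeR). Cdk1 stood at 32.3, 38.5 and 27.9 CPM against 30.0, 29.1, 21.4 and 28.2 CPM, with -0.27 (SE 0.14, adjusted p 0.657). Rrm1 stood at 56.1, 70.5 and 53.5 CPM against 55.5, 49.8, 45.7 and 58.1 CPM, with -0.20 (SE 0.12, adjusted p 0.711). Both overlapped between the groups, and in both control replicate 2 was highest and labelled mutant replicate 3 lowest.

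Of the 6 members above 0 at 8 days, Cdt1 had the smallest p. It stood at 21.0, 23.8 and 22.3 CPM in the controls and at 26.1, 23.9, 23.7 and 28.1 CPM in the labelled mutants, with 0.18 (SE 0.09, adjusted p 0.612, edgeR). Ccne2 stood at 10.4, 13.5 and 13.0 CPM against 12.1, 11.5, 13.0 and 16.5 CPM, with 0.11 (SE 0.15, adjusted p 0.936). Cenpe, a kinesin that links chromosomes to the spindle, stood at 50.1, 52.3 and 41.8 CPM against 55.1, 51.6, 39.2 and 48.8 CPM, with 0.02 (SE 0.12, adjusted p 0.988). All of them overlapped between the groups.

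The 8-day values rested on few libraries. Control replicate 2 was the highest library for 29 of 37 members and labelled mutant replicate 3 the lowest for 25. Without control replicate 2 the median over members was -0.00 and 20 lay below 0, and without labelled mutant replicate 3 the median was -0.04 and 27 lay below 0. Summed levels were 1697, 1994 and 1551 CPM in the controls and 1776, 1622, 1362 and 1708 CPM in the labelled mutants, which overlapped.

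Whether the difference itself changed between the time points was tested in a fit of all 15 libraries. The time points are also separate cohorts, so time and cohort cannot be told apart. This difference passed the threshold for 0 of 37 members by edgeR, beside 0.785% of all genes, and for 0 by DESeq2 and limma-voom, beside 5.64% and 0.228%. There were 3 members that had an unadjusted p under 0.05, beside 16.6% of all genes. These were Ccne2 (0.57, SE 0.22, adjusted p 0.195), Cdt1 (-0.33, SE 0.13, adjusted p 0.200) and Ccne1 (-0.52, SE 0.24, adjusted p 0.293). In all, 34 members had a lower log2 fold change at 3 months than at 8 days, beside 51.9% of all genes, with a median difference of -0.15.

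The 3-month controls mix 2 genotypes. Between the 2 Rfx6f/+ and the 2 Rfx6f/f controls, edgeR called 0 of 37 members and 0 of all genes (0%), and 0 members had an unadjusted p under 0.05, beside 6.86% of all genes. DESeq2 called 0.27% of all genes. The Rfx6f/+ animals lay higher for 35 members, where 49.8% of all genes lay lower, with a median log2 difference of 0.09 and a range from -0.15 (Ccne2) to 0.30 (Bub1b). The median between labelled mutants and all controls was -0.28.

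Cell cycle genes outside the 37 lay in the same direction at 3 months. Of 128 such genes in 7 further lists, 117 lay below 0 with a median of -0.20, and 12 fell and 0 rose past the threshold. That is 9.38%, beside 9.28% of all genes called in either direction. By direction, all 12 calls were lower, beside 4.32% of all genes, and 0 were higher, beside 4.96%. An unadjusted p under 0.05 was found for 61 of the 128, all lower, beside 29.4% of all genes and 14.8% lower. At 8 days 0 of the 128 were called by edgeR, 9 had an unadjusted p under 0.05, beside 8.8% of all genes, and the median was -0.08.

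**Figure D4:**
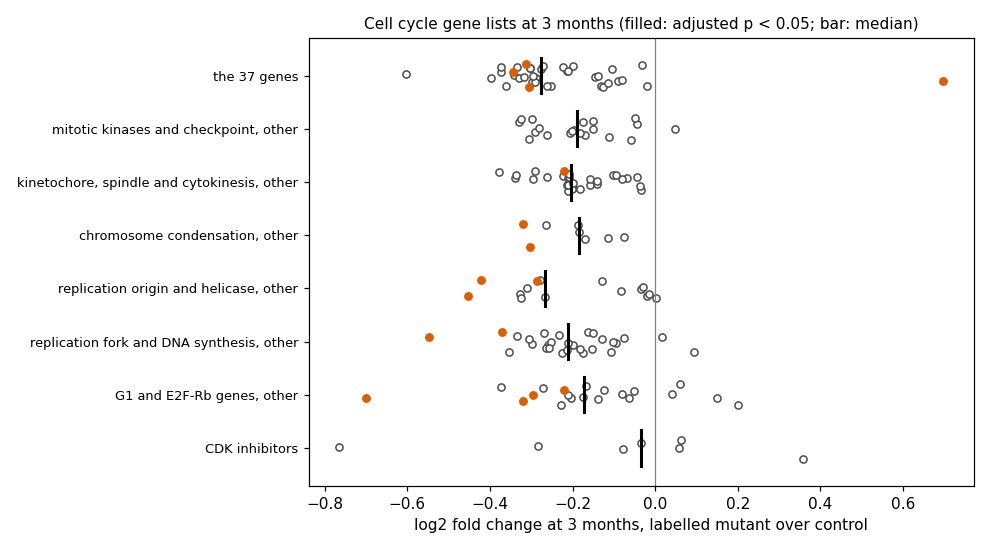
Log2 fold change at 3 months (x axis) of the 37 genes and of 7 further cell cycle lists (y axis), 1 point per gene, filled for an adjusted p under 0.05, with the median as a bar. The medians of the 6 further lists other than the CDK inhibitors lie between -0.27 and -0.17, and that of the CDK inhibitors at -0.03.

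Of the called genes of these lists, Ccnd1 (cyclin D1) had the lowest value. Cyclin D1 links growth signals to the G1 kinases. It stood at 224, 237, 224 and 190 CPM in the 3-month controls and at 105, 185, 131 and 118 CPM in the labelled mutants. The groups did not overlap, and it fell by 0.70 on the log2 scale (SE 0.16, adjusted p 0.0347, edgeR). In the same list of 20 genes of G1 and the E2F and Rb families, 4 fell: Ccnd1, Tfdp1 (-0.29, adjusted p 0.0279), the partner of E2F factors, E2f3 (-0.32, adjusted p 0.0329) and Rbl1.

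Of 15 other genes of origin and helicase, 3 fell, all subunits of the origin recognition complex. They were Orc6 (-0.42, SE 0.08, adjusted p 0.0232, edgeR), Orc2 (-0.28, adjusted p 0.0451) and Orc1 (-0.45, adjusted p 0.0494). The other subunits of this complex in the list, Orc3, Orc4 and Orc5, were not called. Of 28 genes of fork and DNA synthesis 2 fell, the flap nuclease gene Fen1 (-0.55, SE 0.11, adjusted p 0.0226) and the polymerase delta subunit Pold2 (-0.37, adjusted p 0.0411). Fen1 stood at 49.0, 48.3, 48.0 and 39.8 CPM in the controls and at 25.6, 33.8, 32.4 and 35.0 CPM in the labelled mutants. The groups did not overlap.

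Of 8 condensation genes, Ncapg, a condensin subunit (-0.30, adjusted p 0.0199, edgeR), and H2afz, a histone variant (-0.32, adjusted p 0.0306), fell, and of 30 kinetochore, spindle and cytokinesis genes, Kif23 (-0.22, adjusted p 0.0292) fell. Of 20 further mitotic kinases and checkpoint genes 0 were called, 8 had an unadjusted p under 0.05 and the median was -0.19. Of 7 CDK inhibitors, which brake the cycle, 0 were called, 2 had an unadjusted p under 0.05 and the median was -0.03.

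Markers of cell types are given beside these values, each list on its own, and their part in the result was not tested. Their calls are to be read beside 9.28% of all genes called and 29.4% at an unadjusted p under 0.05 at 3 months, and beside 0.0915% and 8.8% at 8 days. Of 12 crypt stem cell and Wnt target genes, 2 rose at 3 months, Sox9 (0.55, adjusted p 0.0411, edgeR) and Rnf43 (0.29, adjusted p 0.0270), and the median was -0.04. Their summed level was 905 to 1025 CPM in the controls and 783 to 1096 CPM in the labelled mutants. At 8 days it was 929 to 993 CPM against 827 to 889 CPM, with 0 called, 1 at an unadjusted p under 0.05 and 10 of 12 below 0. Epithelial genes had 0 of 8 called, 4 at an unadjusted p under 0.05 and a median of -0.19 at 3 months, with summed levels of 12142 to 14079 CPM against 10767 to 12359 CPM, and at 8 days 13868 to 15255 CPM against 12309 to 13457 CPM, with 0 called and 2 at an unadjusted p under 0.05. Of 8 enterocyte genes, Apoa4 rose by 3.42 and Fabp6 fell by 1.44 on the log2 scale at 3 months, and the median was 0.43. At 8 days 0 were called, 0 had an unadjusted p under 0.05 and the median was -0.22.

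Markers of B and T lymphocytes are given next. Of 8 germinal centre B cell genes tested, Nuggc fell (-1.06, adjusted p 0.0352, edgeR), 6 lay below 0 and 2 above, the median was -0.73 with a highest value of 0.49, and the summed level was 64.4 to 86.9 CPM in the controls and 47.4 to 63.3 CPM in the labelled mutants. Of that list, Mef2b was at 0 in all 15 libraries. At 8 days its summed level was 44.8 to 52.5 CPM against 53.4 to 85.9 CPM, with 0 called, 6 at an unadjusted p under 0.05 and all 8 above 0. Of 10 B cell genes 0 were called at 3 months and 3 had an unadjusted p under 0.05, all 10 lay below 0 with a median of -1.29, and the summed levels were 125 to 277 CPM against 22.3 to 182 CPM. At 8 days 0 were called, 10 had an unadjusted p under 0.05 and all 10 lay above 0 with a median of 2.46, and the summed levels were 25.9 to 67.9 CPM against 29.1 to 361 CPM.

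Most T cell and plasma cell genes fell at 3 months. Of 8 T cell genes 6 fell, and the summed level was 92.1 to 113 CPM in the controls and 33.7 to 74.9 CPM in the labelled mutants. At 8 days 0 were called, 2 had an unadjusted p under 0.05, 7 of 8 lay above 0 with a median of 0.44, and the summed level was 35.9 to 52.1 CPM against 41.5 to 74.5 CPM. Of 6 plasma cell genes 4 fell, at 2696 to 3574 CPM against 1567 to 2212 CPM. Of the same 6, 0 were called at 8 days, 1 had an unadjusted p under 0.05, 3 lay above 0 and the summed level was 854 to 1245 CPM against 909 to 1553 CPM. Of 8 smooth muscle genes 0 were called, 4 had an unadjusted p under 0.05, all 8 lay above 0, and the summed level was 1601 to 1940 CPM against 1751 to 3146 CPM. At 8 days 0 were called, 2 had an unadjusted p under 0.05, all 8 lay above 0 and the summed level was 1892 to 2929 CPM against 2294 to 3697 CPM.

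**Figure D5:**
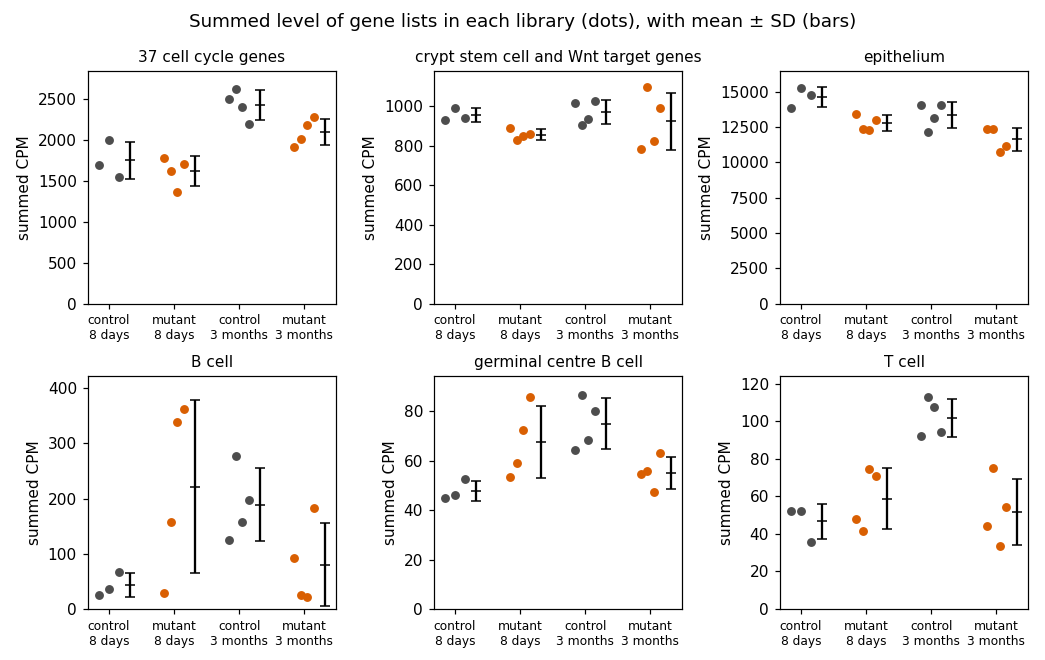
Summed level in CPM (y axis, from 0) of the 37 cell cycle genes and of 5 marker lists in each library (dots) of the 4 groups (x axis), with the mean ± SD beside the dots. At 3 months the germinal centre B cell and T cell lists are apart between the groups, and at 8 days the germinal centre list is apart with the labelled mutants higher and the crypt and epithelial lists with them lower.

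Levels were also divided by exon length, taken as all annotated exon bases of a gene together. That length can exceed the length of the RNA present, so the order between genes is approximate. By this measure Top2a (45.9 CPM per kilobase), Mki67 (36.5) and Pcna (35.1) had the highest levels in the 3-month controls, and E2f1 (1.37) the lowest. The labelled mutants of 3 months had 36.1 for Top2a, 36.0 for Mki67 and 32.2 for Pcna, so that by this measure Top2a and Mki67 stood level there.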

How the data were processed

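The 15 libraries were total RNA libraries of mouse ileum made with Ribo-Zero, per the labels' protocols, though polyA RNA is named as the molecule. The authors deposited raw counts per Ensembl gene, 1 table per time point. Per the submitters' processing notes, the tools were bcl2fastq 2.17.1.14, Bowtie 1.0.0, TopHat2 2.0.10, Bowtie2 2.1.0 and HTSeq 0.6.1, with the build mm9. The annotation release and strand handling are not given in the sources used here, and which sample was extracted with TRI-reagent and which with RNeasy is not labelled, so extraction and group cannot be told apart. Symbols came from GENCODE M21 (GRCm38), which matched 32897 of 37620 identifiers. Unmatched ones held 0.675% of counts.

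From the deposited counts, edgeR 4.0.16 (R 4.3.3) was fitted to each time point alone, with filterByExpr at a minimum count of 10, TMM scaling and the quasi-likelihood test, adjusted by Benjamini-Hochberg over all genes, with a threshold of 0.05. All 15 libraries entered the test of the difference between time points. Groups came from the genotype and time labels, and replicate numbers follow deposit order and only name samples. Log2 fold changes are labelled mutant over control. Near-identical copies were sought with BLAST 2.17.0. Scripts were tested on simulated data.

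The members, the other lists and the rules were chosen with earlier results of these data known. Levels in each library are given for members past the threshold and for the 3 with the smallest p in each direction at each time point, and also for Ccne1 and Mki67, chosen after their values were seen. Of the other cell cycle lists, called genes are given with values, at most 3 per list and direction. Alternatives were DESeq2 1.42.0, limma-voom (limma 3.58.1), RLE in place of TMM, TMM with the 20 most counted genes left out, no filter or a filter of 10 counts in every library, a joint fit, each library left out, and Rfx6f/f controls only.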

Additional observations from a re-analysis of the deposited data

Results flagged for a closer look

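In 5 of 111 checks of a member within a group of 4, 1 library stood apart from the other 3 by Dixon's criterion, and chance at 1 in 20 gives 5.55. At 8 days labelled mutant replicate 3 was low for Ccnb2 (20.3 CPM, the others 30.4 to 31.3 CPM), for Bub1b (32.8 CPM, the others 42.7 to 44.7 CPM) and for Tyms (19.5 CPM, the others 23.1 to 23.7 CPM). At 3 months labelled mutant replicate 1 was low for Top2a (282 CPM, the others 336 to 343 CPM), and labelled mutant replicate 4 was high for Foxm1 (23.5 CPM, the others 19.8 to 20.1 CPM).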

How the results depend on the processing

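At 3 months 4 of 37 members were called, against 18 with DESeq2, 7 with limma-voom and 0 with the Rfx6f/f controls only. When 1 library was left out, from 0 to 10 of 37 were called. With 2 Rfx6f/f controls the fit has fewer samples. The joint fit called 5 of 37, beside 12.6% of all genes. RLE scaling and scaling with the 20 most counted genes left out called 3 of 37 each, beside 9.21% and 9.4%. No filter and the stricter filter called 3 of 37 each, beside 4.93% and 10.1%. At 3 months the members kept their direction in all alternatives run except Cenpf and Mki67. At 8 days 0 members were called under every alternative run. Of the 31 members below 0 with all libraries in, many turned without control replicate 2, where 20 of 37 lay below 0, and 27 lay below 0 without labelled mutant replicate 3. Among members farther from 0 than their SE, leaving out 1 library moved Ccnb1 between -0.3901 and 0.0071 and Gins2 between -0.2785 and 0.001, both above 0 without control replicate 2. For the difference between time points 0 were called under every alternative run. In the shorter promoter window, CHR letters stood in 15 of 30 member windows, CCAAT in 21 and E2F letters in 10. No paired analysis was possible because the labels give no replicate numbers that pair labelled mutants with controls. The cause of these shifts was not tested. The lowest count of a member in a library was 103.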

Other observations

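The 3-month controls had higher levels of most cell cycle genes than the 8-day controls. Every 3-month control lay above every 8-day control for 26 of 37 members, beside 29.3% of all genes tested at both times, and the median ratio of the group means was 1.37. Ccnb1 had the highest ratio (1.87), followed by Mad2l1 (1.77) and Top2a (1.76). E2f1 alone lay wholly below, beside 21.7% of all genes, with a mean of 7.39 ± 0.120 CPM (SD, n = 3) at 8 days and 4.31 ± 0.359 CPM (SD, n = 4) at 3 months (ratio 0.582), and Foxm1 had a ratio of 0.877 with overlapping groups. The tables were scaled separately, time after tamoxifen and cohort cannot be told apart, and no test was made.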
